A study of Rattus norvegicus with 8 samples.

Results

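The sirtuins are a family of 7 mammalian enzymes, Sirt1 to Sirt7, and their RNA was measured in primary rat nucleus pulposus (NP) cells with and without knockdown of Sirt6. Members were taken as the count rows that carry a sirtuin name, which gave 6 rows, Sirt2 to Sirt7, of 32883 gene rows in all. Sirt1 was not analysed here. NP cells build the soft centre of each intervertebral disc, and these were isolated from adult Sprague Dawley rats, 3 to 6 months old. They were cultured in DMEM with serum. The paper describes culture in low oxygen before protein extraction, and does not say whether the cells taken for RNA were kept in it. The Sirt6-Ctrl cells (4 libraries, S1 to S4) received a lentivirus with a control ShRNA, and the Sirt6-KD cells (4 libraries, S5 to S8) received a mixture of lentiviruses with 3 ShSirt6 clones, both under puromycin. Every library is therefore from transduced cells, and each Sirt6-KD library mixes cells with different ShRNAs, whose effects cannot be told apart. The series record speaks of cells from 4 rats with respective controls. No label ties a Sirt6-KD library to a Sirt6-Ctrl library, so all tests were unpaired and any matching by rat was not used.

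Sirtuins remove acetyl and related acyl groups from lysines, and each reaction consumes one molecule of NAD, so their activity depends on the NAD supply of the cell. Sirt1, Sirt6 and Sirt7 are mainly nuclear and act on chromatin. Sirt2 is mainly cytosolic and deacetylates tubulin and many other proteins, while Sirt3, Sirt4 and Sirt5 are found in mitochondria. Sirt6 deacetylates histone H3 at promoters and telomeres and is known for roles in DNA repair, glucose and lipid metabolism and aging.

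The files hold reads counted per gene, 31994838 to 40124813 per library. Rows of ERCC spike-ins, synthetic RNAs commonly added to a sample in a fixed amount and not described in the sources used here, took 2.97% to 9.80% of the counts in Sirt6-Ctrl, with S2 and S1 the highest, and 2.15% to 2.47% in Sirt6-KD. This gave p = 0.0286 in a two-sided exact permutation test, which for 4 libraries against 4 cannot go lower. Of the NP markers, Krt8 stood at 6.56 ± 3.07 CPM (counts scaled to a common library size) in the control and 2.63 ± 0.47 CPM in the knockdown libraries, and Acan at 21.1 ± 23.5 and 13.8 ± 4.08 CPM (mean ± SD here and below, n = 4 in each group). Of the 7 NP markers tested, Krt8 alone was called (log2 fold change -1.32, lower, by the thresholds given below), or 14.3% against 18.7% of all genes tested. Positive values were found for 3 (Car12 1.53, Cdh2 0.53 and Sox9 0.48) and negative ones for 4 (Krt8, Cd24 -0.98, Acan -0.62 and Foxf1 -0.29). Cd24 came close to passing (edgeR adjusted p = 0.0537). The groups overlapped for Car12, which stood at 74.6 CPM in S3 and at 8.87 to 17.6 CPM in the other Sirt6-Ctrl libraries. The summed level of the NP markers was 176 to 262 CPM in the control and 237 to 274 CPM in the knockdown libraries. Brachyury, Krt18, Krt19, Col2a1, Noto and Shh were not analysed here. Of 6 annulus and fibroblast markers tested, all had negative log2 fold changes, as did 6739 of the 13250 genes tested. Col1a2 (-0.089, on 31 to 107 reads) and Mkx (-0.48) were far from passing (edgeR adjusted p = 0.931 and 0.456). Called were 2 of these markers, both lower, or 33.3% against 18.7% of all genes tested (10.7% lower). They were Dpt (17.8 ± 2.68 to 1.998 ± 1.34 CPM, -3.15) and Scx (63.6 ± 36.0 to 27.7 ± 10.8 CPM, -1.20). Col1a1, which made up most of their summed level, was high in both groups (17093 ± 5599 and 11032 ± 4373 CPM, log2 fold change -0.63, not called), and the sum was 13616 to 25924 CPM in the control and 8177 to 17829 CPM in the knockdown libraries. The part of these markers in the results on sirtuins was not tested. Summed macrophage and blood markers with a named row (Cd68, Csf1r and Cd14) reached 11.9 to 29.7 CPM in the control and 15.0 to 23.8 CPM in the knockdown libraries, and the 1 endothelial marker with a named row, Tek, was below the count filter.

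In the knockdown cells Sirt6 and Sirt7 fell, Sirt2 rose, and Sirt3, Sirt4 and Sirt5 stayed short of the threshold. Genes were called at an adjusted p below 0.05 (edgeR, quasi-likelihood) together with a fold change above 1.5. Of the 6 sirtuins tested, 3 were called (1 higher and 2 lower), or 50%, against 18.7% of the 13250 genes tested, of which 8.02% were called higher and 10.7% lower. Sirt6, 1 of the 3, was the gene targeted, so its place in this share and in those that follow was set by the design. The same 3 sirtuins passed on adjusted p alone, where 21.9% of all genes did, and were the 3 whose groups did not overlap, where 30.4% of all genes did not. Levels are CPM normalized by the trimmed mean of M-values (TMM), a scaling that takes most genes as unchanged. In bulk RNA a change in the number of cells that express a gene and a change in RNA per cell cannot be told apart.

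Sirt6 (ENSRNOG00000006393), the targeted gene, had 1964, 1755, 1782 and 1962 reads in S1 to S4 and 753, 702, 738 and 695 in S5 to S8. Normalized, these were 56.4, 54.3, 52.5 and 47.6 CPM in the control libraries against 21.8, 21.0, 19.2 and 20.6 CPM in the knockdown libraries. The groups did not overlap, and the knockdown was of much the same depth in all Sirt6-KD libraries. The level fell 2.55-fold, a log2 fold change of -1.35 (standard error, SE, 0.13, edgeR adjusted p = 0.000713), so about 0.39 of the control level remained as RNA.

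Sirt7 (ENSRNOG00000036683), a nuclear sirtuin that acts on histone H3 and on ribosomal DNA transcription, fell along with Sirt6. Its levels were 20.6, 17.9, 17.9 and 27.1 CPM in S1 to S4 and 7.87, 10.6, 10.6 and 9.44 CPM in S5 to S8. Every Sirt6-KD library lay below every Sirt6-Ctrl library, with S4 the highest. The log2 fold change was -1.12 (SE 0.22, edgeR adjusted p = 0.0084), a 2.17-fold fall. Sirt7 had 33.0 to 57.1 reads per 100 Sirt6 reads in Sirt6-Ctrl and 36.1 to 55.3 in Sirt6-KD, a ratio chosen after the values were seen, with overlapping groups (exact two-sided permutation test, p = 0.371).

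Sirt2 (ENSRNOG00000020102) was the only sirtuin called higher. Its levels were 85.4, 66.0, 67.8 and 62.1 CPM in S1 to S4 and 127.6, 113.6, 106.0 and 107.5 CPM in S5 to S8. The groups did not overlap, and the lowest Sirt6-KD library stood well above S1, the highest Sirt6-Ctrl library. The log2 fold change was 0.69 (SE 0.14, edgeR adjusted p = 0.00848), a 1.62-fold rise. Set against the targeted gene within each library, Sirt2 had 122 to 151 reads per 100 Sirt6 reads in Sirt6-Ctrl and 523 to 586 in Sirt6-KD, a ratio also chosen after the values were seen. The fall of Sirt6 alone raises this ratio, so it is not a separate measure of Sirt2.

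**Figure D1:**
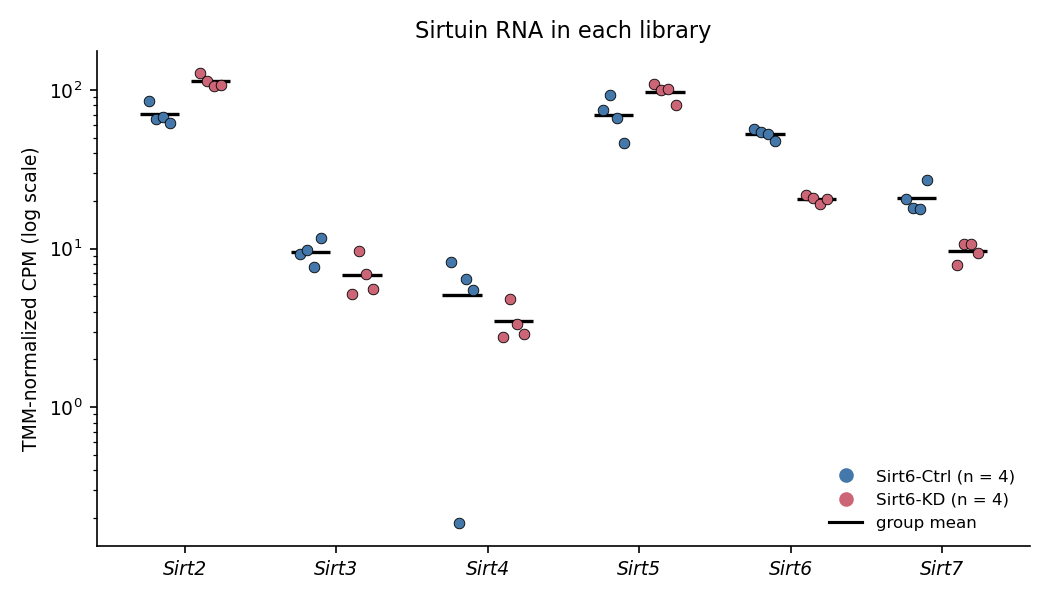
TMM-normalized CPM of the 6 sirtuins in each library on a log axis, with 1 point per library (n = 4 per group) and a bar at the group mean. The groups are separate for Sirt2, Sirt6 and Sirt7 and overlap for Sirt3, Sirt4 and Sirt5, and S2 stands alone at 0.19 CPM for Sirt4.

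The stretches just before the start sites of Sirt7 and Sirt2 are shown because these are the 2 sirtuins besides the targeted one whose RNA was called. They are the 120 bases before the RefSeq start on GRCr8, a later assembly than the one used for the counts, with Sirt7 from chr10:106401499-106401618 on the minus strand and Sirt2 from chr1:93181352-93181471 on the plus strand. Capitals mark matches, on either strand, to an ETS motif (CCGGAAG), an NRF1 motif (GCGCATGCG), a GC box (GGGCGG) or a CCAAT box (CCAAT).
Sirt7: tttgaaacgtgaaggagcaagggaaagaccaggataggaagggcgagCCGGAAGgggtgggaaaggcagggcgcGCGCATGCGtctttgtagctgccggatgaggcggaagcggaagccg
Sirt2: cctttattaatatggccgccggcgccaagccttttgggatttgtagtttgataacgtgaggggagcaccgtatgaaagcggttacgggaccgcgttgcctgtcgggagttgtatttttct
The Sirt7 window held 1 ETS and 1 NRF1 match, motifs found in 5.28% and 0.98% of 33469 promoter windows of the same length. The Sirt2 window held none of the 4, nor an E-box (CACGTG, in 3.17% of windows) or a TATA box (TATAAA, in 6.66%). GC boxes and CCAAT boxes occurred in 23.7% and 19.9% of windows. These are matches of letters and were not tested as binding sites.

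None of the mitochondrial sirtuins was called, and the groups overlapped for each. Sirt5 (ENSRNOG00000017866), which removes succinyl and malonyl groups, measured 74.6, 93.1, 66.1 and 46.0 CPM in S1 to S4 and 108.5, 99.4, 101.4 and 81.0 CPM in S5 to S8. S2 reached into the range of the Sirt6-KD libraries, so the groups overlapped. The log2 fold change of 0.48 (SE 0.20, edgeR adjusted p = 0.11) did not pass. Without S2 it was 0.66 and passed (SE 0.18, edgeR adjusted p = 0.0308). It passed with no other single library left out, and was 0.32 without S4 (SE 0.16, edgeR adjusted p = 0.182).

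Sirt3 (ENSRNOG00000013828), the main mitochondrial deacetylase, had 9.31, 9.77, 7.65 and 11.6 CPM in S1 to S4 and 5.18, 9.62, 6.93 and 5.53 CPM in S5 to S8. S6 lay among the Sirt6-Ctrl libraries and the other 3 below them. The log2 fold change was -0.49 (SE 0.29, edgeR adjusted p = 0.245), and it lay between -0.70 (without S6) and -0.37 (without S8) with each library left out in turn. Sirt3 was counted on 179 to 479 reads.

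Sirt4 (ENSRNOG00000001151), which acts on enzymes of glutamine and lipid metabolism, had 288, 6, 218 and 225 reads in S1 to S4 and 96, 162, 129 and 98 in S5 to S8. Its levels in CPM were 8.28, 0.19, 6.42 and 5.45 in Sirt6-Ctrl and 2.78, 4.84, 3.36 and 2.90 in Sirt6-KD. S2, which had the highest spike-in share, was far below every other library, while S1, S3 and S4 lay above all Sirt6-KD libraries. The log2 fold change was -0.55 (SE 0.77, edgeR adjusted p = 0.647) with S2, and -0.94 without it (SE 0.31, edgeR adjusted p = 0.0572). Neither passed.

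Shares of the sirtuin reads do not depend on how libraries are scaled. Sirt6 took 22.2%, 22.5%, 24.0% and 23.8% of the reads on the 6 sirtuins in S1 to S4, and 7.96%, 8.10%, 7.77% and 9.06% in S5 to S8. Exact Clopper-Pearson 95% intervals, which cover counting error only, ran from 21.3% to 25.0% over the Sirt6-Ctrl libraries and from 7.24% to 9.73% over the Sirt6-KD libraries. The mean share dropped by 14.9 percentage points (exact two-sided permutation test, p = 0.0286, 0.0571 adjusted over the 6 shares). The share of Sirt2 went from 30.7 ± 2.54% to 45.2 ± 2.18% and that of Sirt7 from 9.33 ± 2.86% to 3.86 ± 0.66%, each with the same exact permutation p of 0.0286 and 0.0571 after adjustment. Those of Sirt3, Sirt4 and Sirt5 overlapped between the groups, with adjusted exact permutation p of 0.103, 0.286 and 0.103. Shares are of reads and not of molecules, since transcript lengths were not used here. As the shares add up to a fixed total, a fall in one raises the sum of the others.

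**Figure D2:**
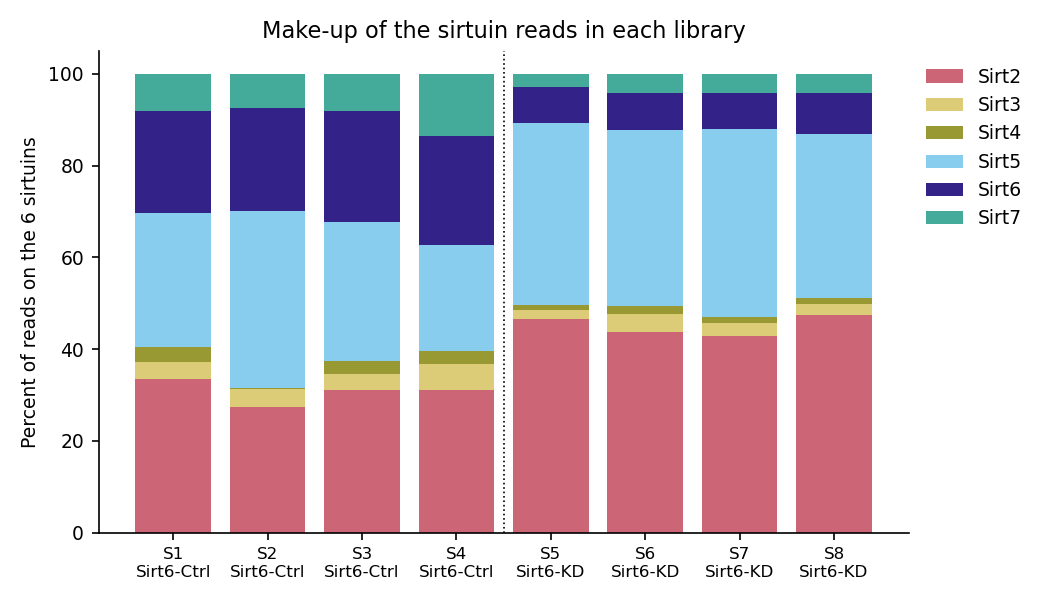
Percent of the reads on the 6 sirtuins that fell on each of them, as 1 stacked bar per library, Sirt6-Ctrl left of the dotted line and Sirt6-KD right of it. The Sirt6 band narrows from 22.2% to 24.0% in S1 to S4 down to 7.77% to 9.06% in S5 to S8, while the Sirt2 band widens from 27.4% to 33.5% up to 42.8% to 47.4%.

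Summed over the 5 sirtuins other than Sirt6, the level was 198, 187, 166 and 152 CPM in S1 to S4 and 252, 238, 228 and 206 CPM in S5 to S8. All Sirt6-KD libraries were above all Sirt6-Ctrl libraries, by 55.3 CPM on average (exact two-sided permutation test, p = 0.0286). Sirt2 and Sirt5 make up most of this sum. With Sirt6 included, the family total was 229 ± 24.3 CPM in the control and 252 ± 19.7 CPM in the knockdown libraries, and the groups overlapped (exact two-sided permutation test, p = 0.171).

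The sirtuins were compared by the root mean square difference of their log2 CPM over the 8 libraries, each centred on its own mean. The closest pairs were Sirt2 with Sirt5 (0.27), Sirt6 with Sirt7 (0.30) and Sirt3 with Sirt7 (0.35), and the most distant was Sirt4 with Sirt6 (1.70). That distance rested on S2, the library with 6 Sirt4 reads. Without S2, a setting chosen after seeing the data, Sirt4 with Sirt6 came to 0.32, near Sirt6 with Sirt7 (0.29), and the most distant pair was Sirt5 with Sirt6 (1.01). Among all genes tested, the 5 with a pattern most like that of Sirt6 were Tmem129, Pdia4, Insig1, Coq5 and Gpr107, at 0.12 to 0.15 on this measure. Their log2 fold changes were -1.45, -1.38, -1.19, -1.32 and -1.18, a description only, since likeness to Sirt6 chose them.

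The calls depended on scaling by most genes. When each library was scaled by its spike-in counts instead, the median log2 fold change over all genes moved from -0.016 to 0.94 and no sirtuin was called (edgeR, 2 of 6 at an unadjusted p below 0.05, while DESeq2 and limma-voom with their own scaling each called 3). The log2 fold changes became 1.69 for Sirt2, -0.36 for Sirt6 and -0.22 for Sirt7, and, once the median over all genes was subtracted, 0.74, -1.31 and -1.16. Sirt3 and Sirt4 changed sign, to 0.46 and 0.21, and stayed below that median at -0.49 and -0.73. Spike-in share differed between the groups, and its part in these results cannot be told apart from the knockdown. Without S1 and S2, the Sirt6-Ctrl libraries with the most spike-in reads, the calls of Sirt2, Sirt6 and Sirt7 held (log2 fold changes 0.82, -1.27 and -1.21, with adjusted p of 0.00804, 0.00213 and 0.0122 from edgeR), and Sirt5 was called as well (0.81, adjusted p = 0.0244, edgeR).

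**Figure D3:**
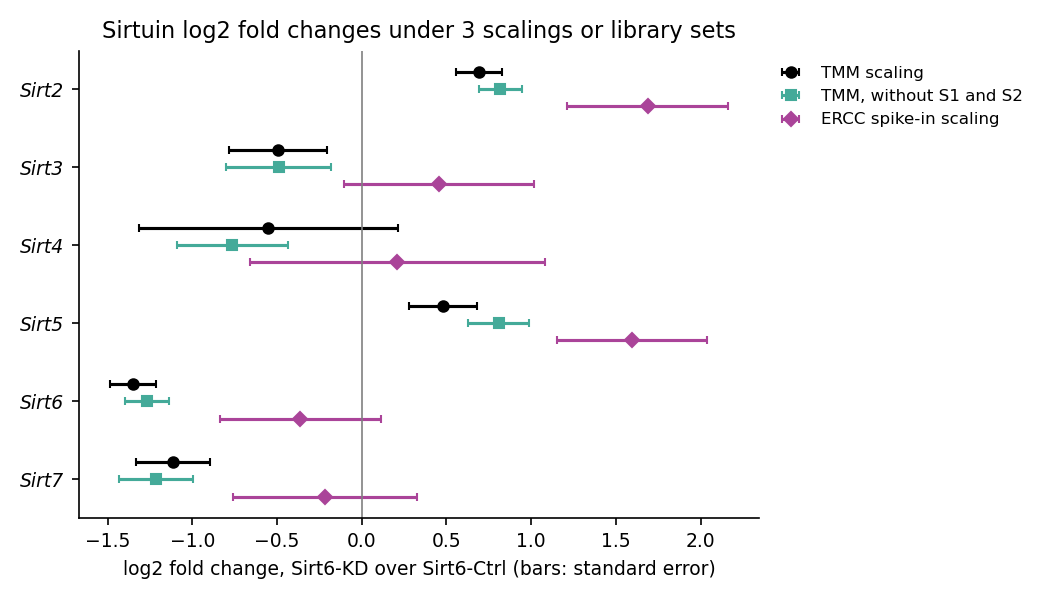
Log2 fold change (knockdown over control) for each sirtuin, with bars of 1 standard error, under TMM scaling, under TMM scaling without S1 and S2, and under spike-in scaling. Spike-in scaling shifts the values to the right, as for Sirt6 from -1.35 to -0.36, with Sirt6 and Sirt7 still the lowest.

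Sirtuins were set beside the genes that feed, regulate or receive their activity, and beside the zinc-dependent deacetylases. The latter, as a family, also remove acetyl groups, by a reaction that does not use NAD. Of the 11 zinc-dependent enzymes, Hdac1 to Hdac11, none was called by edgeR, DESeq2 or limma-voom, and 2 had an unadjusted p below 0.05 in edgeR. Over all genes tested, edgeR called 18.7%. Their median log2 fold change was 0.20, against -0.016 over all genes tested. Hdac1, a core enzyme of repressor complexes, averaged 108.3 CPM in the control and 83.4 CPM in the knockdown libraries (log2 fold change -0.38, SE 0.19, edgeR adjusted p = 0.177). Hdac7 passed the adjusted p (0.0499, edgeR) and not the fold change, with a log2 fold change of 0.46.

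Of 15 genes of NAD supply and use, 2 were called higher and none lower, or 13.3% against 18.7% of all genes tested (8.02% higher and 10.7% lower), with a median log2 fold change of 0.011. Nampt, the rate-limiting enzyme of NAD salvage, had 188, 237, 372 and 125 CPM in S1 to S4 and 450, 477, 484 and 376 CPM in S5 to S8. S3 came within a few CPM of S8, and the groups did not overlap (log2 fold change 0.95, SE 0.28, edgeR adjusted p = 0.0342). Cd38, a hydrolase that consumes NAD, had 3.36, 6.99, 11.04 and 18.4 CPM in S1 to S4 and 28.8, 21.6, 26.9 and 28.6 CPM in S5 to S8 (log2 fold change 1.41, SE 0.42, edgeR adjusted p = 0.037). The 2 calls were lost without S1, without S5, without S6 or without S7, when 0 genes of the list were called and 2 to 5 had an unadjusted p below 0.05 (edgeR). Without S8 only Nampt was called, and without S2 only Nnmt, which clears nicotinamide, as lower. Parp1, a DNA damage sensor that also consumes NAD, was at 56.4 ± 10.6 and 63.8 ± 5.84 CPM (edgeR adjusted p = 0.461).

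Among 8 regulators of sirtuins, 1 was called, or 12.5% against the 18.7% of all genes, and their median log2 fold change was -0.11. Rps19bp1, which encodes AROS, an activator of Sirt1, went down from 60.9 ± 16.5 to 29.0 ± 2.83 CPM (log2 fold change -1.07, SE 0.20, edgeR adjusted p = 0.00713), and it was called with each library left out in turn. Ccar2, an inhibitor of Sirt1, was at 56.5 ± 6.24 and 53.3 ± 1.39 CPM (adjusted p = 0.683, edgeR).

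Of 19 nuclear and cytosolic substrates and partners, 1 was called higher and 1 lower, or 10.5% against 18.7% of all genes, with a median log2 fold change of 0.22. Wrn, a helicase of DNA repair, rose from 11.6 ± 2.47 to 21.1 ± 1.33 CPM (log2 fold change 0.86, adjusted p = 0.0162, edgeR), and Acss2, which makes acetyl-CoA from acetate, fell from 19.2 ± 6.21 to 10.2 ± 1.64 CPM (log2 fold change -0.92, adjusted p = 0.0362, edgeR). The groups did not overlap for Wrn and did for Acss2. Without S6 neither was called (6 of the list at an unadjusted p below 0.05, edgeR), and without S1, S4, S5, S7 or S8 Wrn alone was. Without S3 the list had 5 calls, and without S2 it had 4. Foxo3, a stress-response transcription factor, had 13.6, 5.75, 40.4 and 20.8 CPM in S1 to S4 and 49.5 to 55.9 CPM in Sirt6-KD. Its groups did not overlap, but the wide spread in Sirt6-Ctrl left it short of the threshold (log2 fold change 1.36, SE 0.45, edgeR adjusted p = 0.0526). It was called without S2, without S3, with no filter on low counts and by DESeq2 and limma-voom.

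Substrates of the mitochondrial sirtuins were called in both directions, 2 of 16 higher and 3 lower, or 31.2% against 18.7% of all genes (8.02% higher and 10.7% lower), with a median log2 fold change of -0.033. Sod2, the mitochondrial superoxide dismutase, rose from 523 ± 112 to 904 ± 90.9 CPM (log2 fold change 0.79, adjusted p = 0.0123, edgeR), and Idh2, an isocitrate dehydrogenase that makes NADPH, from 51.7 ± 19.1 to 86.2 ± 5.99 CPM (0.74, adjusted p = 0.0402, edgeR). Mlycd, a malonyl-CoA decarboxylase, fell from 33.9 ± 8.55 to 17.9 ± 3.31 CPM (-0.92, adjusted p = 0.0175, edgeR). The respiratory chain subunits Sdhb and Ndufa9 fell by 0.71 and 0.74 on the log2 scale (adjusted p = 0.0196 and 0.0398, edgeR). Sod2 was called whichever single library was left out. It was the only one of the list called without S1, without S6 or without S7, while 2 were called without S8 and 3 without S2 or without S5. Without S1 and S2 the 3 genes called lower were not called.

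Genes listed as repressed by SIRT6 in other cells were called in both directions, 3 of 16 higher and 3 lower, or 37.5% against 18.7% of all genes (8.02% higher and 10.7% lower), and their median log2 fold change was 0.40. For Myc, the paper cites control of MYC pathway activity by SIRT6, which is not the same as repression of Myc RNA. Slc2a1 (a glucose transporter), Hmga2 (a chromatin protein of growing cells) and Myc rose by log2 fold changes of 1.27, 1.82 and 0.69 (adjusted p = 0.0225, 0.0276 and 0.0324, edgeR). Srebf1 and Srebf2, the transcription factors of lipid and sterol synthesis, and Ldhb, a lactate dehydrogenase subunit, fell by 2.001, 1.23 and 0.63 on the log2 scale (adjusted p = 0.000366, 0.00143 and 0.042, edgeR). The calls of Srebf1 and Srebf2 held with each library left out in turn, and they were the only ones left without S1, S5, S6 or S7. Without S1 and S2 the list had 3 calls, these and Aldoc. Txnip encodes a thioredoxin inhibitor that the study used as a readout of SIRT6, reporting more of the protein in Sirt6-KD cells by immunoblot. Its RNA, a different measure, had 16.4, 19.8, 12.0 and 43.4 CPM in S1 to S4 and 16.4, 14.2, 13.2 and 39.0 CPM in S5 to S8. S4 and S8 stood apart from the rest of their groups, which overlapped fully, and the log2 fold change was -0.14 (SE 0.45, edgeR adjusted p = 0.85).

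**Figure D4:**
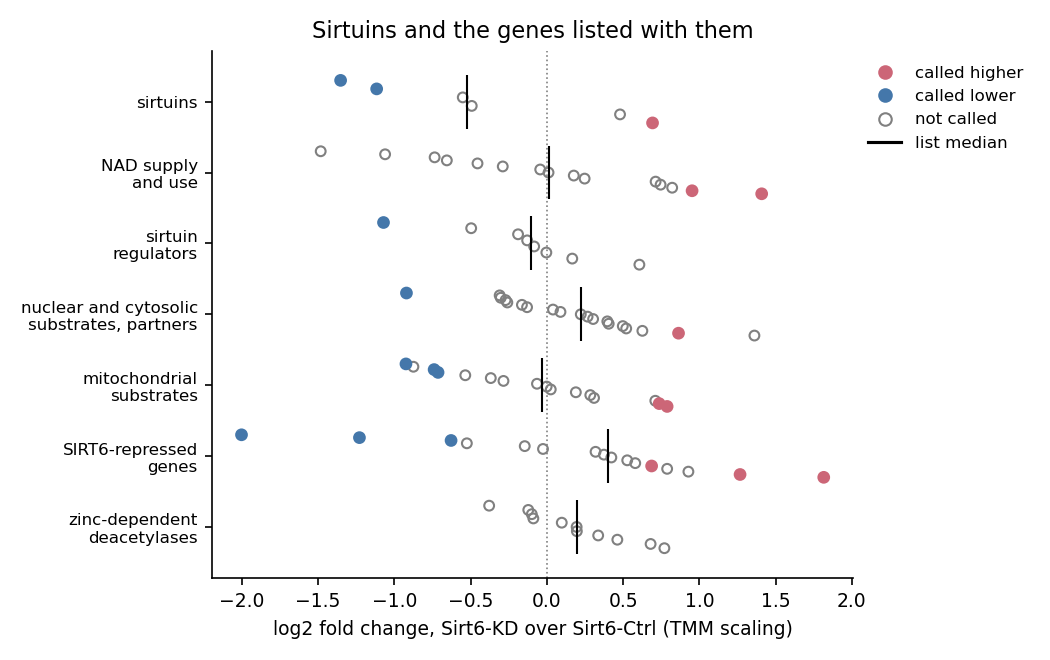
Log2 fold change (knockdown over control) for each tested gene of the sirtuin family and of the lists set beside it, with filled points for called genes, open points for the others and a line at each list's median. Of the lists, the sirtuins held 3 calls among 6 genes, the targeted Sirt6 included. The SIRT6-repressed genes held 6 among 16 and the zinc-dependent deacetylases none among 11, against 18.7% of all genes tested.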

How the data were processed

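RNA-seq was performed on 4 Sirt6-Ctrl and 4 Sirt6-KD libraries, grouped by the genotype label. The authors deposited raw read counts per Ensembl gene and spike-in. The submitters' processing notes name Trimmomatic 0.36, STAR 2.5.2b, featureCounts of Subread 1.5.2 and Rnor_6.0, with no strand setting. A deposited table with the authors' normalized signal (counts divided by 1 size factor per library), fold changes and p-values was used for gene names alone. It lists the 13612 rows whose counts sum to more than 80, so a gene without a name there was not analysed.

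Rows were filtered with filterByExpr, which left 13313 (63 of them spike-ins), normalized by TMM and tested with edgeR 4.0.16 (quasi-likelihood, two-sided, Benjamini-Hochberg over all rows) in R 4.3.3. DESeq2 1.42.0 and limma-voom (limma 3.58.1), other scalings and filters, and each library left out in turn were alternatives, and the distances between sirtuins were also taken without S2. Standard errors given with edgeR results were derived as the absolute log2 fold change divided by the square root of the F statistic. The scripts were tested on simulated data. Since no molecular identifiers are described, intervals cover counting error only. Per the study's methods the RNA came from independent experiments, and p-values measure the spread between these libraries.

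Named genes were all sirtuins, up to 3 called genes per list and direction with the smallest p, Txnip, Nampt, Parp1, Ccar2, Hdac1 and Foxo3, and the 5 genes most like Sirt6. Hdac7, Nnmt, Aldoc and the markers were named after their values were seen. Members and lists were chosen with earlier results of these data known. Of the 7 sirtuins, 6 had a RefSeq promoter entry (GRCr8). Sirt6 was the one without. Sirt2 overlaps another gene model there (LOC103689966) and Sirt4 overlaps 2 snRNA genes. Whether these overlaps exist in the annotation used for the counts, and whether they affected the reads counted, was not tested.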

Additional observations from a re-analysis of the deposited data

Results flagged for a closer look

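The genes named by the rule above were examined, with the Sirt6 share, the summed other sirtuins and the spike-in share. In each, the 4 libraries of a group were searched for one far from the rest. Its gap to the nearest other had to take up most of the range (at the 95% level of Dixon's criterion). Hdac7, Nnmt, Aldoc, the cell markers and the genes beside the sirtuins were not examined. Of 70 groups examined, 2 held such a library, and chance alone gives about 1 in 20, so 3.5 here. Hmga2 was lowest in the Sirt6-KD library S7, with a gap of 0.834 of the range. Txnip was highest in the Sirt6-KD library S8, with a gap of 0.873 of the range.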

How the results depend on the processing

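No paired analysis was run, because no label or column name links a control library to a knockdown library of the same rat. Since the series record speaks of respective controls, the libraries may be matched, and the effect of such a pairing was not tested. The reads per kilobase alternative was not run, since the reference gives gene spans and no transcript lengths. Sirt2, Sirt6 and Sirt7 were called under DESeq2 size factors, no filter, DESeq2, limma-voom, removal of spike-in rows, no fold change threshold, without S1 and S2, and on leaving out any single library, when the count of sirtuins called was 3 to 4. Scaling by spike-ins was the exception: 0 genes were called among the sirtuins and in each of the other 6 lists (edgeR, with 2 to 12 of each at an unadjusted p below 0.05), with log2 fold changes of 1.69 for Sirt2, -0.36 for Sirt6, -0.22 for Sirt7, 0.46 for Sirt3 and 0.21 for Sirt4. Under it Rps19bp1 (0.056), Mlycd (0.17), Sdhb (0.40), Ndufa9 (0.45), Ldhb (0.42), Hdac1 (0.62), Ccar2 (0.85) and Txnip (0.70) also changed sign, each below the median of all genes, 0.94. That scaling called 20 genes higher and 4 lower over all genes, against 1063 and 1416 with TMM, 1602 and 1730 with DESeq2, and 810 and 709 without S1 and S2. With limma-voom Sirt4 was 0.19, and Txnip ranged from -0.61 to 0.37 on leaving out single libraries, positive without S4 (0.37) and without S7 (0.021). DESeq2 called 2 sirtuin regulators and 4 nuclear and cytosolic substrates, limma-voom 4 of the latter, and dropping the fold change threshold 1 zinc-dependent deacetylase. Without S1 and S2, 2 mitochondrial substrates and 3 SIRT6-repressed genes were called, Sirt5 was 0.81, the Sirt6 share changed by -15.7 percentage points and the summed other sirtuins by 72.0 CPM, where the smallest p that the exact permutation test allows is 0.133. On leaving out single libraries, the counts called were 0 to 3 for NAD supply and use, 1 to 2 for sirtuin regulators, 0 to 5 for nuclear and cytosolic substrates, 1 to 5 for mitochondrial substrates and 2 to 7 for SIRT6-repressed genes. Sirt5 ranged from 0.32 to 0.66, the change of the Sirt6 share from -15.2 to -14.6 points, that of the summed other sirtuins from 47.5 to 63.6 CPM and that of the spike-in share from -4.09 to -1.82 points, and with 7 libraries the exact permutation test cannot go below p = 0.0571. The cause of these differences was not tested. For Sirt4 the standard error went from 0.77 to 0.31 without S2, which had 6 reads. As a measure of depth, 3 reads correspond to 0.0727 to 0.0928 CPM.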

Other observations

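The 2 nearest genes on each side of every analysed sirtuin were listed from the RefSeq annotation of GRCr8, and 14 of the 24 neighbours were tested. Of these, 3 were called lower and 0 higher in Sirt6-KD. That is 21.4% against 18.7% of all genes tested (8.02% higher and 10.7% lower), a share near the background for both directions together. Beside Sirt3, Psmd13 (a proteasome subunit) went from a mean of 223 to 106 CPM and Bet1l (a Golgi SNARE) from 50.7 to 16.97 CPM, with log2 fold changes of -1.07 and -1.58 (adjusted p = 0.0051 and 0.00143, edgeR). Beside Sirt7, Pcyt2, an enzyme of phosphatidylethanolamine synthesis, went from a mean of 61.8 to 29.0 CPM, a log2 fold change of -1.09 (adjusted p = 0.00435, edgeR). These genes were named after their values were seen.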
